A study of Homo sapiens with 8 samples.

Results

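Divergent protein-coding promoter regions are accessible sites shared by a pair of protein-coding genes that lie head to head, on opposite strands, and are transcribed away from each other. They were taken from the ATAC-seq peak lists of HUDEP-2 cells by position alone. A merged region counted as divergent when its summit lay within 1 kb of the start sites of 2 protein-coding genes that point apart and start at most 1 kb from each other. Of 43569 merged regions, 852 (1.96%) met this rule, and they made up 6.29% of the 13541 regions with a coding start within 1 kb of the summit. Each was named by its closest qualifying pair, which gave 849 distinct pairs and 1698 genes, and 66 regions held more than 1 such pair. The comparison group was 9748 single promoters, regions whose summit lay within 1 kb of the start of 1 coding gene and of no other.

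In ATAC-seq the transposase Tn5 inserts sequencing adapters into open chromatin, and fragments accumulate over accessible DNA. HUDEP-2 is an established human erythroid precursor line that grows with stem cell factor (SCF), the ligand of the Kit receptor, erythropoietin, dexamethasone and doxycycline. All libraries used here came from cells with a control guide RNA (sgControl), starved of growth factors for 5 h and then given either 50 ng/ml SCF or phosphate-buffered saline (PBS) for 1 h. There were 2 libraries per treatment, each from about 50000 cells. The other guide of the study (sgEGR1) was aimed at an element upstream of EGR1, by CRISPR interference. Its 4 samples were not analysed here. The methods of the study call the replicates biological duplicates, and neither they nor the labels say whether these were separate cultures. Peaks numbered 29269 to 33616 per library, and taking PBS replicate 1 as the unit, the background gave a depth of 1.42 for the other PBS library and of 0.883 and 0.843 for SCF replicates 1 and 2. A peak lay within 1 kb of the start of 9 or 10 of 12 erythroid marker genes per library, GATA1, KLF1 and KIT among them, of 2 of 8 markers of other blood cells (CD14 and SPI1) and of at most 1 of 6 markers of other tissues. In bulk chromatin, fewer cells with an open site and less accessibility per cell cannot be told apart.

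Head-to-head gene pairs are common in mammalian genomes. The stretch between their starts serves as the promoter of both genes, is usually rich in CpG and poor in TATA boxes, and tends to drive genes that most cells use, such as those for DNA repair, mitochondria and RNA processing. Many other promoters also start a non-coding RNA in the opposite direction, so single promoters were further divided by whether a long non-coding RNA (lncRNA) gene started within the same distance and pointed away.

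The bases between the starts show what such a promoter looks like. The sequences below are read 5′ to 3′ on the plus strand of GRCh37, with the minus-strand gene to the left and the plus-strand gene to the right, and stretches that any annotated transcript covers with an exon were left off. Capitals mark the words searched as binding motifs, on either strand. Of the 13 sets of words searched, those found here were CCAATC or CCAATG for NFY, a CCAAT-binding factor, and GGGCGG for the SP and KLF factors. Shown first are members among those with the highest rank of accessibility, which are chr1:45140154-45140363 (210 bases), chr12:82752189-82752306 (118 bases), chr19:33462898-33463114 (217 bases) and chr19:16606979-16607204 (226 bases).
TMEM53/ARMH1: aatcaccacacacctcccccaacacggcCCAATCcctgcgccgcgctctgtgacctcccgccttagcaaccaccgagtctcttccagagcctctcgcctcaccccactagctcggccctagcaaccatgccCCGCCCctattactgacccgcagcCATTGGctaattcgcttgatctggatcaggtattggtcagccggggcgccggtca
CCDC59/METTL25: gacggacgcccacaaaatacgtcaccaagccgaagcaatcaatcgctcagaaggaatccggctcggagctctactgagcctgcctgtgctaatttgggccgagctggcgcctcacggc
CEP89/FAAP24: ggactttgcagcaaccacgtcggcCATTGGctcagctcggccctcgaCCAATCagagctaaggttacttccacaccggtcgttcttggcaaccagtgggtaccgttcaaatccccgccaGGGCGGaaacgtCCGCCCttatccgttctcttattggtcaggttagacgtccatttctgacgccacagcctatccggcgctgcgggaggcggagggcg
CALR3/C19orf44: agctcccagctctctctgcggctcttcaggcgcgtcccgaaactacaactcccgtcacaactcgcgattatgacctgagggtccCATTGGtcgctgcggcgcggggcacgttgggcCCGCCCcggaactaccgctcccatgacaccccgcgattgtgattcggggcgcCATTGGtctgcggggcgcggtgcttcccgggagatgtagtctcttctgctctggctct

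The next set holds the pair SARS2 and MRPS12 at chr19:39421404-39421583, a textbook divergent promoter, and 3 pairs whose rank differed between treatments, NUP37 and PARPBP at chr12:102513899-102513960, MED22 and RPL7A at chr9:136214987-136215072, and RPL12 and LRSAM1 at chr9:130213686-130213767. The SARS2/MRPS12 promoter held 3 NFY words in 180 bases, whereas no searched word lay between the starts of MED22 and RPL7A or in the stretch shown for RPL12 and LRSAM1.
SARS2/MRPS12: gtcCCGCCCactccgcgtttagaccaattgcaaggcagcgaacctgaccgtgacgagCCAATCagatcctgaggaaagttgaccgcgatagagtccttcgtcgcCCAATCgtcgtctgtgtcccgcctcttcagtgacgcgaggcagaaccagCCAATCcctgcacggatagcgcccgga
NUP37/PARPBP: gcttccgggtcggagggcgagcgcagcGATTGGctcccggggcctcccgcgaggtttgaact
MED22/RPL7A: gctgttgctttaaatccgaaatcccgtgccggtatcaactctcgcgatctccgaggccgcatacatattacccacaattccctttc
RPL12/LRSAM1: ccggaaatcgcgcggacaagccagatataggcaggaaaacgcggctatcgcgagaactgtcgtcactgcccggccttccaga

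Nearly every divergent region was called in every library. Of the 852, 842 (98.8%, 95% Wilson interval 97.9 to 99.4) had a peak in all 4 libraries, beside 51.3% of all merged regions and 85.7% of single promoters. The other 10 were called in 3 (3 regions), 2 (4 regions) or 1 (3 regions). Of these, the regions at LYAR/ZBTB49, ANKRD16/FBH1 and RNF113A/NDUFA1 were additional, weaker sites beside a stronger region of the same pair. The rest included FOXL2/FOXL2NB, with a peak in PBS replicate 2 alone, COL4A4/COL4A3, which encode chains of basement membrane collagen, and NLRP7/NLRP2. Intervals and floors here cover counting error only, over regions or, for the annotation and gene lists, over pairs or genes.

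Counted from the annotation instead of the peaks, 981 coding pairs in the genome point apart within 1 kb. A summit lay within 1 kb of both starts for 913 (93.1%) and 916 pairs (93.4%) in PBS replicates 1 and 2, and for 918 (93.6%) and 916 (93.4%) in SCF replicates 1 and 2. Of the 18275 coding genes with no such partner, 54.6% to 55.9% per library had a summit within 1 kb of their start. The units are not alike. A pair needs a summit near both starts, but it holds 2 genes, and either may bring that summit. An unpaired gene needs a summit near 1 start and is counted alone. How much this weighs on the comparison was not tested. The difference was 38.3 ± 0.622 percentage points (SD, n = 4 libraries) and had the same sign in 4 of 4. The two-sided exact sign-flip test over libraries gave p = 0.13, the smallest that 4 libraries allow.

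The 63 pairs without a region were not spread evenly. A run of 13 neighbouring pairs on chromosome 6, from 29424848 to 33257378 (hg19), had none, and in these 3.83 Mb, which cover the major histocompatibility complex, the lists held 3 summits for 157 coding starts. The run includes TAP1/PSMB9, an antigen processing pair, but also pairs of genes that most cells use, such as VPS52/RPS18 and PPP1R10/MRPS18B. No other run was longer than 2 pairs. Elsewhere the pairs without a region included PLCZ1/CAPZA3, DUOX2/DUOXA2, ABCG5/ABCG8 and COL4A1/COL4A2. In 8 of the 63, among them HECTD3/UROD and GART/SON, a region overlapped the stretch between the starts but its summit was over 1 kb from at least 1 of them.

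Divergent regions also ranked higher than single promoters. Each peak was ranked within its own library by fold enrichment, the pileup of fragments at the summit over the local background, with 100 as the highest. The median rank of divergent regions was 83.6 and 85.5 in PBS replicates 1 and 2 and 84.1 and 83.9 in SCF replicates 1 and 2. Single promoters were at 73.97, 75.5, 73.1 and 74.01 in the same order, below the divergent regions in every library. The difference was 10.1 ± 0.629 points (SD, n = 4, exact sign-flip p = 0.13, the smallest possible).

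**Figure D1:**
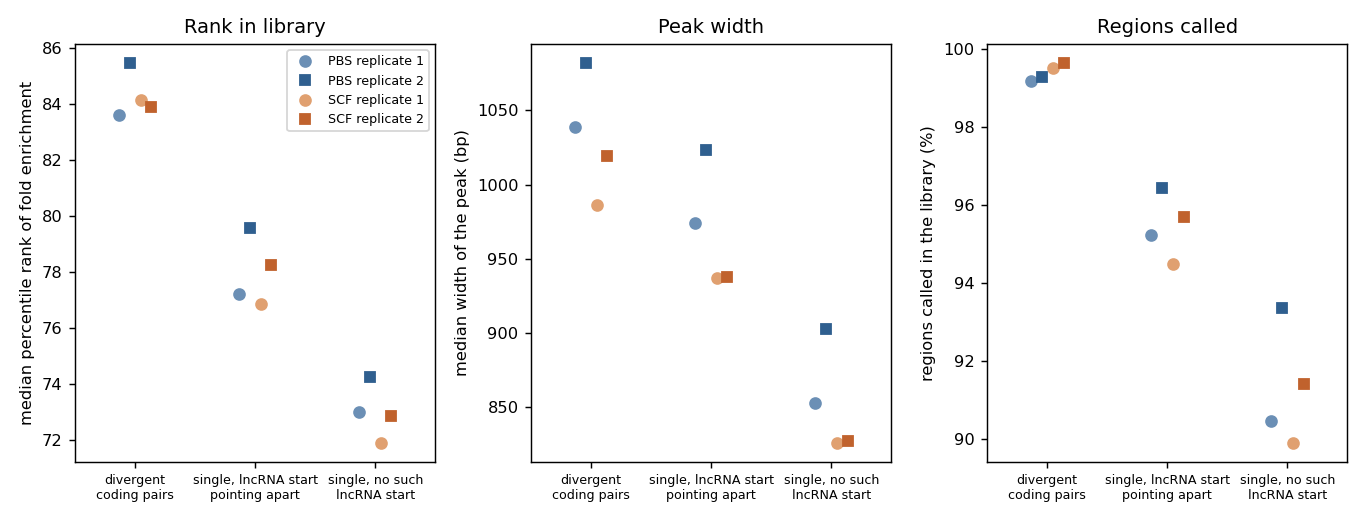
Median percentile rank of fold enrichment, median peak width in bp and percent of regions called, for 852 divergent regions, 1740 single promoters with a lncRNA start pointing apart and 8008 without, with 1 point per library (axes do not start at 0). In every library divergent regions are highest on all 3 measures, with median ranks from 83.6 to 85.5, and single promoters without a lncRNA start are lowest.

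The summit pileup, which does not depend on the local background, differed in the same direction. Its median was 90.5, 122, 87 and 78 fragments in divergent regions of PBS replicates 1 and 2 and SCF replicates 1 and 2, and 57, 74, 53 and 50 in single promoters, a ratio of 1.56 to 1.65. The local background was higher as well, at 6.13 to 6.64 times the lowest of the library beside 4.14 to 4.59 times in single promoters. Peaks over divergent pairs were wider, with medians of 1039, 1082, 986.5 and 1019 bp beside 875, 925, 846 and 846 bp, a difference of 159 ± 13.7 bp (SD, n = 4, exact sign-flip p = 0.13).

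Single promoters with a lncRNA start pointing apart lay between both other classes. Against these 1740 regions, divergent regions ranked higher by 6.29 ± 0.717 points and were wider by 63.5 ± 13.3 bp. Against the 8008 single promoters without such a start, the differences were 11.3 ± 0.687 points and 179 ± 13.7 bp (SD, n = 4; each of the 4 exact sign-flip tests gave p = 0.13, with the same sign in 4 of 4 libraries).

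Base composition also differed between the classes. Within 100 bp of the summit the median GC content was 64.7% in divergent regions, 68.7% in single promoters and 54.2% in all regions. A ratio of observed to expected CpG above 0.6 was found in 92.6% of divergent regions, 85.997% of single promoters and 33.2% of all regions. Single promoters with a lncRNA start pointing apart had the same share as divergent regions, 92.6%, and those without such a start 84.6%. In each of 5 bins of GC content divergent regions had the higher median rank in each library. In the lowest bin, up to 56.2% GC, the medians were 86.2 to 89.5 for divergent regions and 72.1 to 72.7 for single promoters. In the highest, from 72.1% GC, they were 75.6 to 78.4 and 67.9 to 70.4.

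The rank of a pair varied with the distance between its starts. Rank is by fold enrichment over the local background, and summit pileups were not compared by distance. The median distance was 233 bp, with quartiles at 120 and 388 bp and a range from 11 to 999 bp. Median rank, averaged over the 4 libraries, was 79.6 ± 1.35 (SD) for the 168 pairs up to 100 bp apart, 82.8 ± 1.53 for 200 pairs at 101 to 200 bp, 86.97 ± 1.05 for 180 pairs at 201 to 300 bp, and 89.8 ± 0.710 for 170 pairs at 301 to 500 bp. It then fell back to 77.9 ± 2.10 for the 134 pairs at 501 to 1000 bp. Pairs at 301 to 500 bp thus ranked above every other bin in each library, by 2.82 ± 0.732 points over the next shorter bin and by 11.8 ± 1.45 points over the longest one (SD, n = 4, exact sign-flip p = 0.13 for each of the 4 comparisons). The bin compared is the highest of these same medians, so the tests give no separate support for it. GC content moved with distance too, from a median of 66.9% in the shortest bin to 61.2% at 301 to 500 bp and 63.7% in the longest, and its part in the ranks was not tested. At the 1 kb limit, 18 regions at 901 to 1000 bp had a median rank of 60.7, and 9 regions at pairs 1001 to 1100 bp apart, outside the rule, had 65.2.

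**Figure D2:**
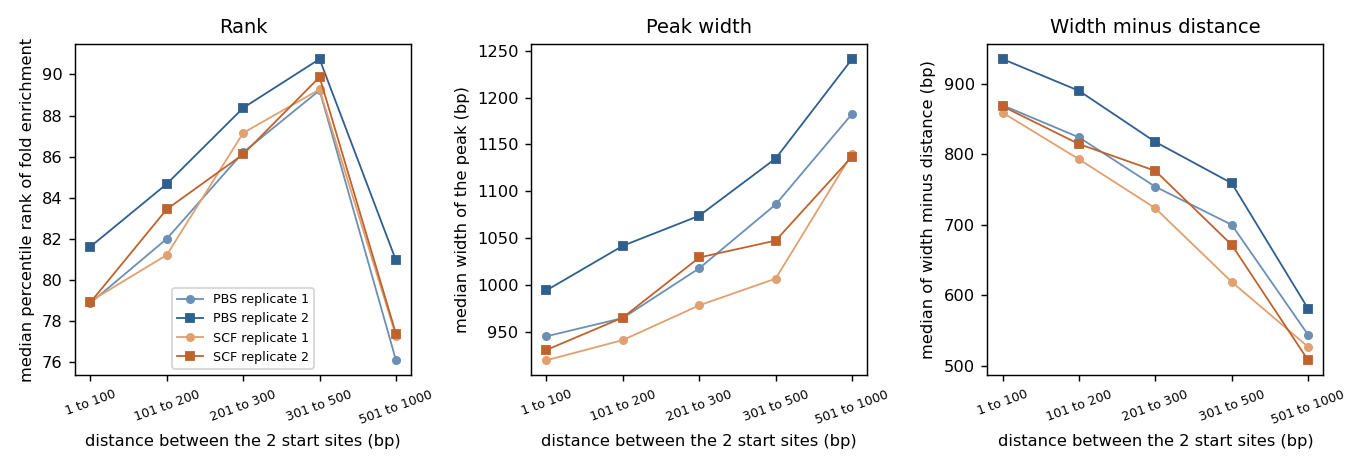
Median percentile rank, median peak width and median of peak width minus the distance between the starts (both in bp), by distance between the 2 start sites, with 1 line per library (axes do not start at 0). In all 4 libraries rank peaks at 301 to 500 bp, while width rises with distance by less than the distance itself.

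Peak width grew with distance but did not keep pace with it. The mean of the library medians rose from 948 ± 32.9 bp in the shortest bin to 1069 ± 54.6 bp at 301 to 500 bp and 1175 ± 48.6 bp in the longest. After subtracting the distance, 883 ± 35.1 bp were left in the shortest bin and 540 ± 31.04 bp in the longest (SD, n = 4). The peak covered both starts in 800 of 845 called regions (94.7%) of PBS replicate 1 and in 94.6% to 95.4% in the other libraries, and it reached a median of 354 to 397.5 bp into each gene, beside 408 to 450 bp in single promoters. A pair was nearly always 1 peak, as only 0.827% to 1.65% of called regions held more than 1 peak of the same library.

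The summit lay between both starts in 482 of 852 regions (56.6%, Wilson interval 53.2 to 59.9), past the plus-strand start in 168 and past the minus-strand start in 202. In single libraries the share was 55.1% to 59.6%. It was 6.55% for pairs up to 100 bp apart (11 of 168), 38% at 101 to 200 bp, 72.2% at 201 to 300 bp and 91.8% at 301 to 500 bp. A short interval leaves less room for a summit, but the distance to the midpoint changed as well. Its median was 112 bp in the shortest bin and 96.75 bp in the next, against 40.75 bp and 42 bp at 201 to 300 and 301 to 500 bp, and 138 bp in the longest bin. In the closest pairs the summit thus sat inside 1 of the 2 genes, and with 201 to 500 bp between the starts it sat near the middle.

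**Figure D3:**
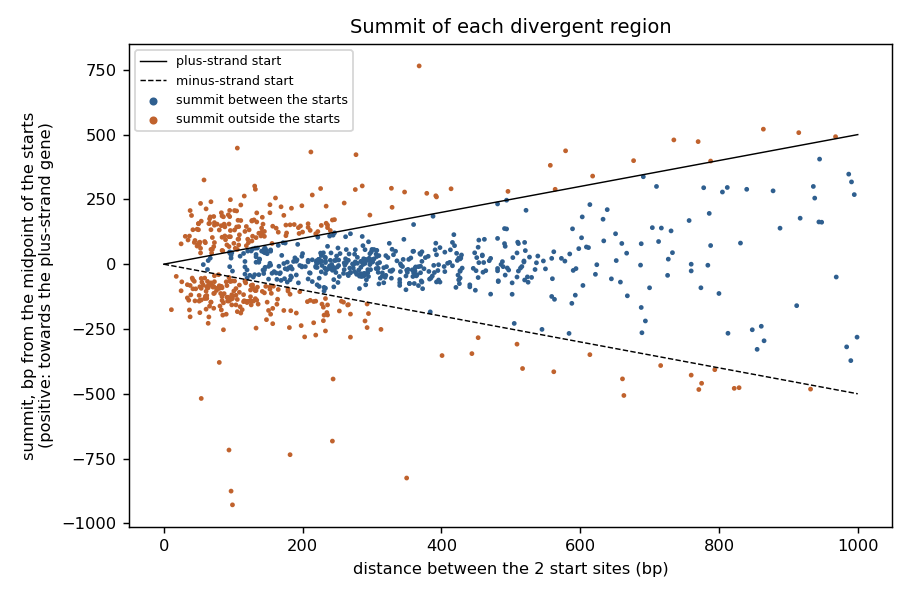
Summit of each of the 852 divergent regions, as bp from the midpoint of the starts, against the distance between the 2 start sites in bp, with lines at both starts. Summits of close pairs fall on either side of the starts, and those of pairs 201 to 500 bp apart gather near the midpoint.

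Words of promoter factors near the summit were counted in both classes, within 100 bp on each side and on both strands. CCGGAAGT, bound by ETS factors such as GABP, was in 70 divergent regions (8.22%, Wilson interval 6.55 to 10.3), in 4.03% of single promoters (3.66 to 4.44) and in 1.46% of all regions. The NFY words CCAATC or CCAATG were in 209 (24.5%, 21.8 to 27.5), 18.1% (17.4 to 18.9) and 14.3%. CGCATGCG, the word of NRF1, which regulates genes of mitochondria and growth, was in 30 (3.52%, 2.48 to 4.98), 2.02% (1.76 to 2.32) and 0.778%. ACTACAATT, the word of ZNF143, was in 8 (0.939%, 0.477 to 1.84), 0.256% (0.174 to 0.378) and 0.172%. The E2F words TTTGGCGC or TTTCCCGC were in 30 (3.52%, 2.48 to 4.98), 2.14% (1.87 to 2.45) and 1.01%. For these 5 the intervals of divergent regions and of all 9748 single promoters did not overlap. Against the 1740 single promoters with a lncRNA start pointing apart, the intervals overlapped for each of the 5. Shares there were lower than in divergent regions, at 5.75% for ETS, 21.03% for NFY, 2.299% for NRF1, 0.287% for ZNF143 and 2.53% for E2F. For the other words that were more frequent in divergent regions, the intervals of divergent regions and of all single promoters overlapped. The cAMP response element TGACGTCA was in 2.70%, 1.74% and 0.682%, and the E-box CACGTG in 7.51%, 5.98% and 4.59%.

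The word GGGCGG of the SP and KLF factors, which shares letters with the EGR word GCGTGGG, was in 55.6% of divergent regions, 61.1% of single promoters and 26.6% of all regions. This order turned within 250 bp of the summit, at 87.9% and 85.9% of divergent regions and single promoters, and within bins of GC content, at 55.8% and 52.5%. GCGTGGG was in 5.75%, 7.31% and 3.80%, and TATAAA, the TATA box, in 2.35%, 2.22% and 6.84%. The words of GATA factors and AP-1 were rarer in both promoter classes than in all regions. AGATAA or TGATAA, bound by GATA factors, was in 4.34% of divergent regions, 4.10% of single promoters and 25.4% of all regions, and TGANTCA of AP-1 in 1.06%, 1.93% and 8.43%.

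**Figure D4:**
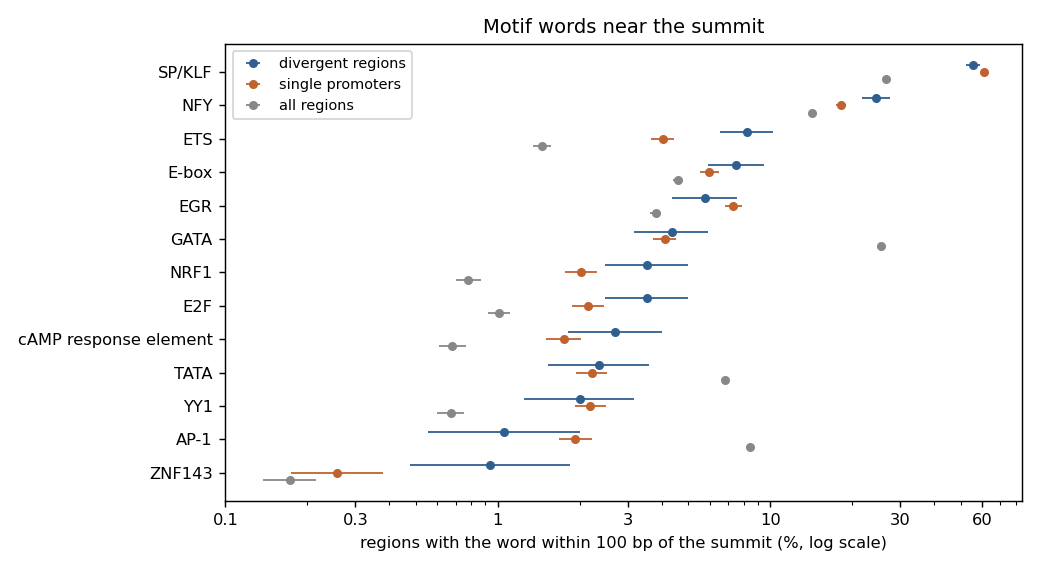
Percent of regions with each motif word within 100 bp of the summit, on a log scale, for 852 divergent regions, 9748 single promoters and all 43569 regions, with 95% Wilson intervals. ETS, NFY, NRF1, E2F and ZNF143 words are at higher shares in divergent regions than in single promoters, and GATA and AP-1 words are far below their share in all regions.

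The place of a word differed by factor. In the window of 250 bp on each side of the summit, YY1's word AAGATGGCG lay a median of 18 bp downstream of the nearest start in divergent regions, with 9.59% of its 73 sites upstream. ETS words lay a median of 17 bp upstream and NFY words 65 bp upstream, with 83.3% of the 604 NFY sites upstream. For YY1 the window mattered, since its word was in 1.995% of divergent regions and 2.19% of single promoters within 100 bp of the summit but in 8.22% and 4.85% within 250 bp. The place of the nearest of 2 starts cannot be set directly against that of a single start. Divergent regions with an ETS word had a median mean rank of 83.2 and those without one 84.3, while single promoters had 83.96 with the word and 75.8 without. Divergent regions with an NFY word were at 86.1 and those without at 83.2, and for YY1 the medians were 87.5 and 84.1. The 8 members with the ZNF143 word had a median of 92.5, beside 84.1 without it. Single promoters also had higher medians with these words. They were at 82.1 with and 74.4 without the NFY word, at 80.0 and 76.1 for YY1, and at 86.8 and 76.3 for ZNF143. Of the 5 factors ETS, NRF1, NFY, YY1 and ZNF143, 33.3% of divergent regions held the word of 1 and 2.93% those of 2 or more, beside 23.3% and 1.64% of single promoters.

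Among members called in all 4 libraries, those with the highest rank were at or near the top of every library. TMEM53/ARMH1 on chromosome 1 (45139534 to 45140597) ranked at 99.91 in PBS replicates 1 and 2 and SCF replicate 1 and at 99.95 in SCF replicate 2. TMEM53 encodes a protein of the nuclear envelope, and its starts are 233 bp apart. C19orf47/PLD3, which includes a lysosomal nuclease gene, was at 99.8 to 99.9 in the 4 libraries. CCDC59/METTL25 ranged from 99.4 to 99.8, and CEP89/FAAP24, a centriole gene and a member of the Fanconi anaemia core complex, from 99.3 to 99.9. ZGRF1/LARP7, of which LARP7 binds the 7SK RNA that restrains transcription elongation, ranged from 99.2 to 99.8. HACL1/BTD, CALR3/C19orf44 and INCA1/KIF1C followed, with mean ranks of 99.5, 99.5 and 99.4. The 8 highest had starts 142 to 428 bp apart.

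The lowest members called in all 4 libraries were of another kind. STX10/IER2 on chromosome 19 (13260818 to 13261459), whose starts are 36 bp apart, had the lowest mean rank of these, at 2.12 and 4.83 with PBS and 6.19 and 11.7 with SCF. IER2 is an immediate early gene. Its low rank did not come with few fragments, as the summit pileup was 102, 150, 107 and 103 in PBS replicates 1 and 2 and SCF replicates 1 and 2, above the class median in 4 of 4 libraries, and the local background was 25.1 to 43.5. RGS19/OPRL1, a regulator of G protein signalling and the nociceptin receptor, had pileups of 12 to 22, and FAM83H/IQANK1, at a mean rank of 14.8, had 18 to 31. MAN2B1/WDR83, with the gene of a lysosomal mannosidase, was at a mean rank of 21.5 and ENKD1/C16orf86 at 22.2, the latter ranging from 5.60 in SCF replicate 2 to 35.5 in SCF replicate 1.

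Of 14 textbook pairs, 12 were annotated as pointing apart within 1 kb and 10 were members. SARS2/MRPS12, a mitochondrial tRNA synthetase and a mitochondrial ribosomal protein, ranked highest, at 97.6 and 98.6 with PBS and 99.3 and 97.2 with SCF. HSPD1/HSPE1, which encode the mitochondrial chaperonin and its partner, was at 94.1 and 91.3 with PBS and 96.5 and 95.7 with SCF, with starts 539 bp apart. HARS1/HARS2, the cytosolic and mitochondrial histidyl-tRNA synthetases, had a mean rank of 89.7, and TK1/AFMID, with the thymidine kinase of the nucleotide salvage pathway, 89.1. NPAT/ATM, SIRT3/PSMD13 and POLR2I/TBCB lay at 84.5, 84.1 and 83.9. PPAT/PAICS, which catalyse steps of purine synthesis, was at 75.8, PRKDC/MCM4 at 72.6 and SURF1/SURF2 lowest at 36.2, with 40.4 and 40.5 under PBS and 45.02 and 18.9 under SCF. UNG/ALKBH2 did not meet the rule by its canonical starts, and COL4A1/COL4A2 and TAP1/PSMB9 had no region.

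Genes of several groups were often in divergent regions. Of 12459 coding genes with a summit within 1 kb of the start, 1766 (14.2%) lay at a divergent region, counting every qualifying pair. Lists taken by the start of the gene symbol also hold assembly and associated factors. The intervals below treat genes as independent, although both genes of a pair can be in the same list. They are then too narrow, most of all for histones, whose 18 genes lay at 9 regions. The 41 zinc finger genes lay at 32 regions. For RNA polymerase genes (POLR) it was 10 of 30 (33.3%, Wilson interval 19.2 to 51.2), for mitochondrial ribosomal proteins 25 of 76 (32.9%, 23.4 to 44.1), for histones 18 of 56 (32.1%, 21.4 to 45.2), for oxidative phosphorylation 32 of 103 (31.1%, 22.95 to 40.6) and for DNA replication and repair 26 of 89 (29.2%, 20.8 to 39.4). For tRNA synthetase, proteasome, chaperone, cytosolic ribosome and cell cycle genes the intervals include 14.2%. Among the tRNA synthetases, which load amino acids on tRNA, it was 8 of 34 (23.5%, 12.4 to 40.0). Among genes named PSM, for proteasome subunits and factors such as PSMG2, it was 8 of 46 (17.4%, 9.09 to 30.7). Among chaperones it was 11 of 71 (15.5%, 8.88 to 25.7). Genes named RPL or RPS, mostly of cytosolic ribosomal proteins but with the kinase gene RPS6KB1, were at 14 of 94 (14.9%, 9.08 to 23.5). The share was 41 of 470 (8.72%, 6.50 to 11.6) for zinc finger genes and 2 of 33 (6.06%, 1.68 to 19.6) for cell cycle genes. For erythroid and heme genes it was 1 of 39 (2.56%, 0.454 to 13.2), and for immediate early and MAPK feedback genes 1 of 38 (2.63%, 0.466 to 13.5). The intervals of the zinc finger, erythroid and heme, and immediate early lists lay below 14.2%. The erythroid member was UROS, an enzyme of heme synthesis, with BCCIP (mean rank 93.1), and the immediate early member was IER2.

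Ranks within these groups differed most for the histones. The 18 histone genes formed 9 regions, each a pair of an H2A and an H2B gene, with a median mean rank of 50.7 and a highest one of 74.9 (H2AC25/H2BC26), and a median GC content of 44.8%. The median over all divergent regions of the coding genes was 84.2. Low histone ranks need not mean few fragments. Pileups in PBS replicates 1 and 2 and SCF replicates 1 and 2 were 136, 156, 114 and 119 at H2AC25/H2BC26. In the same order they were 211, 307, 194 and 212 at H2BC12/H2AC12 and 149, 197, 125 and 132 at H2BC21/H2AC20. These were above the class median in every library, on local backgrounds of 9.21 to 38.0. Pileups of the other histone pairs are not given here. By median mean rank, mitochondrial ribosomal regions were at 83.7 (range 23.5 to 99.3), led by MRPL2/KLC4. The only region with such a gene on both sides was MRPL46/MRPS11. Oxidative phosphorylation regions were at 84.1, led by LRRC41/UQCRH at 96.98. Chaperone regions had a median of 92.0 over 9 regions, led by CCT3/TSACC at 95.6, and tRNA synthetase regions 89.2 over 7, led by EARS2/UBFD1 at 98.8. Zinc finger genes took both sides in 8 regions, among them ZNF565/ZNF146 at 99.1 and ZNF891/ZNF10 at 97.6. For DNA repair, LIG1/ZSWIM9 was at 96.4 and FANCB/MOSPD2 at 95.5.

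SCF for 1 h moved the class little. For the 842 members with a peak in every library, median rank was 83.7 and 85.5 with PBS and 84.2 and 83.9 with SCF, a difference of −0.577 points that was smaller than the gap between the PBS replicates (exact permutation p = 1, where 2 against 2 libraries cannot give less than 0.33). The advantage over single promoters called in all 4 libraries was 7.94 and 7.45 points with PBS and 9.40 and 7.76 with SCF, which overlap (difference 0.884, exact permutation p = 0.667). Median width was 1039.5 and 1082.5 bp with PBS and 988.5 and 1024.5 bp with SCF, lower in both SCF libraries (difference −54.5 bp, exact permutation p = 0.33, the smallest possible). Single promoters moved alike, from 897 and 958 bp to 865 and 869 bp, and the recovered depth was also lowest in both SCF libraries. The part of depth in the widths was not tested.

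No single divergent region passed the test between treatments. In limma's moderated test on log2 fold enrichment, adjusted over all 22355 regions called in 4 libraries, 0 of 842 were higher (0% of all regions) and 0 were lower (0% of all regions), and the lowest adjusted p among them was 0.549. At an unadjusted p under 0.05, 13 were higher (1.54%, beside 3.52% of all regions) and 22 lower (2.61%, beside 3.34% of all regions). The median log2 change was −0.018 in divergent regions, and the central 90% ran from −0.25 to 0.21. The lowest p among those higher belonged to RGS19/OPRL1, NUP37/PARPBP and DNAI7/ETFRF1, and among those lower to MED22/RPL7A, TIGD7/ZNF75A and ACACA/TADA2A.

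A region was said to gain or lose rank when the lower library of 1 treatment was at least 10 points above the higher library of the other. Among the 842, 4 gained rank with SCF (0.475%, beside 2.56% of all regions called in 4 libraries) and 9 lost rank (1.07%, beside 3.04%). Single promoters gained in 0.862% and lost in 2.07%, and those with a lncRNA start pointing apart in 0.501% and 1.38%, near the divergent shares. With peaks ranked by −log10 p instead of fold enrichment, 1 of the 4 gains and 1 of the 9 losses remained. High ranks leave less room to move, and the median SD of a region's rank over the 4 libraries was 3.98 points in divergent regions and 5.24 in single promoters. Among regions of mean rank 75 to 90, gains and losses were 0.545% and 0.817% of 367 divergent regions, and 0.415% and 1.36% of 2653 single promoters. At mean rank 50 to 75, which held 6 of the 9 losses, they were 0.562% and 3.37% of 178 divergent regions, 0.868% and 2.80% of 2534 single promoters and 2.38% and 3.12% of all regions.

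RGS19/OPRL1 gained most, from ranks of 1.86 and 2.25 with PBS to 19.2 and 44.1 with SCF, on pileups of 12 and 15 and of 17 and 22 fragments. LSM7/SPPL2B, with a gene of the U6 RNA ring, was at 44.1 and 40.5 with PBS and 57.5 and 61.98 with SCF. NUP37/PARPBP, of which NUP37 is part of the nuclear pore, went from 78.8 and 81.4 to 95.3 and 92.6, with a log2 change of 0.38 ± 0.13 (SE, limma adjusted p = 0.633). DNAI7/ETFRF1 went from 74.3 and 78.5 to 94.5 and 88.8. In each of these 4 the PBS and SCF libraries do not overlap, as the rule requires.

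Of the 9 losses, 8 were at pairs that start 34 to 104 bp apart. MED22/RPL7A, a Mediator subunit and a ribosomal protein, was at 76.5 and 80.03 with PBS and at 51.7 and 61.1 with SCF, and its pileup was 85 and 108 with PBS and 58 and 55 with SCF. RPL12/LRSAM1, again with a ribosomal protein gene, was at 61.4 and 57.2 with PBS and at 43.1 and 41.4 with SCF. ACACA/TADA2A, with the gene of acetyl-CoA carboxylase, which begins fatty acid synthesis, was at 89.8 and 88.1 with PBS and at 72.4 and 73.8 with SCF. PIGY/HERC3 went from 68.1 and 74.8 to 37.1 and 57.5, and ACOX3/TRMT44 from 69.9 and 71.8 to 56.3 and 53.3. SUGP2/ARMC6 and ENSG00000159239/WDR54 differed by gaps of 10.9 and 10.4 points. Of the 13 regions that gained or lost, 10 were among the 165 pairs up to 100 bp apart and 3 among the 677 pairs farther apart. The median distance of the 13 was 86 bp. The 10 were 3 gains and 7 losses of 165. Of all 22355 regions called in 4 libraries, 572 (2.56%) gained and 679 (3.04%) lost. Whether close pairs changed more often than other regions was not tested. In 9 of 9 losses the summit lay outside the stretch between the starts, but 7 of them were pairs up to 100 bp apart, of which only 6.55% had it between. The loss at the widest interval was ATPSCKMT/CCT5 (starts 392 bp apart), which the naming rule left out and which was added after its values were seen.

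**Figure D5:**
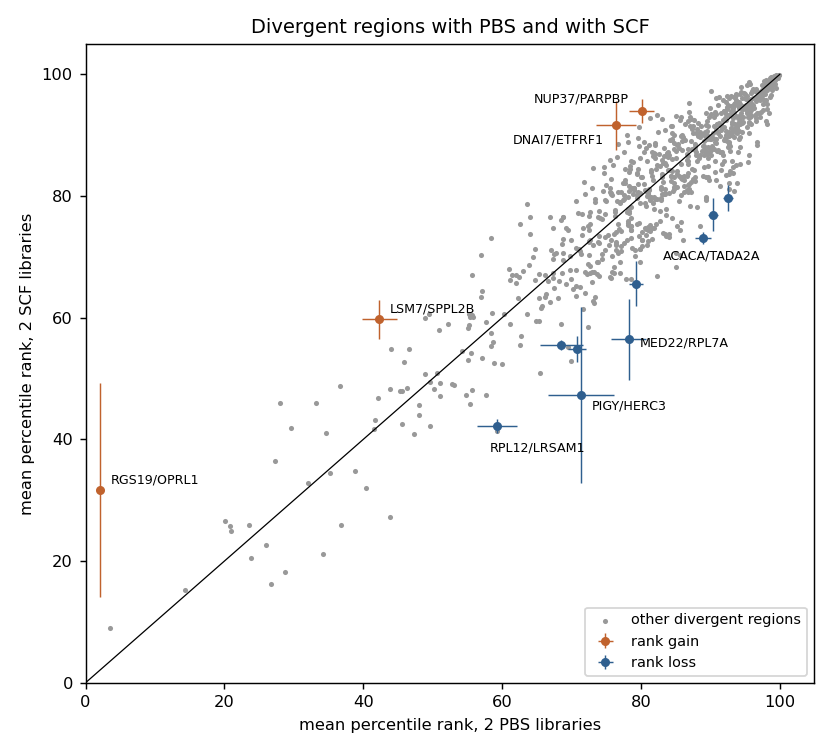
Mean percentile rank of the 842 divergent regions called in all 4 libraries, with PBS on the horizontal and SCF on the vertical axis, and SD bars (n = 2) for the 4 regions that gained and the 9 that lost rank. Most regions lie close to the diagonal, and the spread narrows towards high ranks.

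Presence calls differed even less. Only SNCB/EIF4E1B, with the gene of beta-synuclein, had a peak in each SCF library and in no PBS library (0.117% of 852, beside 1.65% of all regions), with pileups of 6 and 9 fragments at ranks of 2.29 and 18.1. The reverse, a peak in each PBS library and in no SCF library, was found for 0 divergent regions, beside 2.37% of all regions and 0.975% of single promoters. For a count of 0 in 852 the Wilson interval reaches 0.449%, and a floor of 3 counts of the total is 0.352%.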

How the data were processed

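ATAC-seq was done by the authors on HUDEP-2 cells with paired-end reads. Per the labels, bcl2fastq, Bowtie2 and SAMtools were used. The labels name hg38, but the series description and the file headers name hg19, and coordinates were read as hg19. The methods name the ATAC-seq pipeline of ENCODE; the peak caller itself is not given in the sources used here. Each of the 4 deposited lists was called on 1 library, with no pooling. The authors deposited for each peak a whole-number score, which was not used, the fold enrichment (ratio of summit pileup to local background), and the −log10 of the p-value and q-value. Summit pileups were recovered from fold enrichment and −log10 p (within 0.0001 for 100% of peaks with a −log10 p under 300), and relative depth from the lowest background. Read totals are unknown.

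Peaks sharing 1 bp were merged on 24 chromosomes. The summit of a region was that of its peak of highest rank, and start sites were those of Ensembl canonical transcripts (GENCODE release 44 on GRCh37; the 5′ end of the record for 623 of 20163 coding genes). Where a library had several peaks in a region, the one of highest rank was used. Classes were compared over libraries by two-sided exact sign-flip tests, treatments by two-sided exact permutation tests and by limma with trend on median-centred log2 fold enrichment with Benjamini-Hochberg adjustment. The limma step was tested on simulated data. The MAnorm comparison of the study needs reads and was not run. Members, gene lists and tests were chosen with earlier results of these data known. Named regions were the 8 highest and 5 lowest by mean rank among those called in all 4 libraries, the 8 largest rank gains and losses, regions called with 1 treatment only, the 3 lowest p in each direction, 14 textbook pairs and the 2 highest of each of 13 gene lists. Sequences were printed for those of the first 2 sets and the textbook pairs with at least 60 exon-free bases and under 300 bp, as a selection. Some pairs that these rules name are not reported here.

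Replicate numbers inside the peak names differ from those of the labels, which were used. Software versions were Python 3.11.15, pandas 2.3.3, R 4.3.3 and limma 3.58.1.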

Additional observations from a re-analysis of the deposited data

How the results depend on the processing

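Divergent regions ranked above single promoters, were wider and were called more often under each alternative tried, by 8.0 to 13.5 points of rank, 134 to 189.9 bp and 5.62 to 10.2 percentage points. The alternatives with single promoters at any coding start of the gene (13.5 points) and with ranks by recovered summit pileup (11.8 points) were chosen after seeing the data. Of the counts of divergent regions, those of the treatment comparison depended most on the processing, and the cause was not tested unless given. Rank losses, 9 as reported, were 15 with the 5′ end of the gene record as start site, 16 with the start sites of all coding transcripts and 17 at a minimum −log10 q of 5. Rank gains, 4 as reported, were 7 when the lists were trimmed to equal numbers of peaks. Ranking by −log10 p left 1 gain and 1 loss. A gap of 5 points gave 27 gains and 41 losses and a gap of 20 points 0 and 0. Leaving out 1 library, which eases the rule, gave 13 to 34 gains and 21 to 50 losses: 13 and 30 without PBS replicate 1, 34 and 21 without PBS replicate 2, 20 and 35 without SCF replicate 1, 19 and 50 without SCF replicate 2. SCF-only regions, 1 as reported, were 2 with all coding transcripts, 2 with the stricter q, 3 with an equal number of peaks and 1 to 4 with a library left out, the highest without PBS replicate 2. PBS-only regions, 0 as reported, were 3 with all coding transcripts and 0 to 1 with a library left out, the 1 without PBS replicate 1. The SCF minus PBS difference in median rank, −0.577, turned to 0.299 without PBS replicate 2 and was −1.46 to 0.299 over the libraries left out. limma called 0 divergent regions under each of the 13 alternatives tried, with lowest adjusted p of 0.309 to 0.64. The replicate numbers gave no sign of pairing, with r = 0.0119 between the differences of replicate 2 minus replicate 1 with PBS and with SCF over 22355 regions. With a replicate block, the differences stayed at −0.577 (exact sign-flip p = 1, 2 pairs) and 0.884 points (p = 0.5, the smallest 2 pairs allow), and limma called 0 regions. Shares of motif words within 250 bp of the summit or between the starts differed from those within 100 bp for 12 of 13 words in at least 1 of these alternatives, and the cause was not tested.

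With 2 libraries per treatment, the exact tests between treatments had a lowest p of 0.33, and peak lists hold only sites that passed a q-value threshold at the depth of each library. Fold enrichment is relative to a local background that nearby open sites raise.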
